A study of Mus musculus with 6 samples.

Results

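The genes described here encode proteins that carry out or steer pre-mRNA splicing: SR proteins, hnRNP proteins, the Sm and other snRNP proteins, and the SF3A and SF3B subunits of the U2 snRNP. They were chosen by a rule on the gene symbol, though the choice was made with earlier results of these data known. The rule took every probe set whose single symbol begins with Hnrnp, Srsf and a digit, Snrp, or Sf3a or Sf3b and a digit. The rule gave 47 genes of the 18193 genes on the arrays with such a probe set: 10 SR genes, 19 hnRNP genes, 9 Sm and snRNP genes and 9 SF3 genes. Each gene is represented by the probe set with the highest mean over the 6 arrays, and the 92 other probe sets of these genes are described separately.

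Total RNA came from E14Tg2a cells, an established line of mouse embryonic stem cells, 96 h after siRNA transfection, and was read on Affymetrix expression arrays. Nucleolin (Ncl), an abundant nucleolar RNA-binding protein, was targeted by Ncl siRNA #1 or by Ncl siRNA #2. The control cells had received an siRNA duplex against luciferase, an enzyme of fireflies. Each of the 3 groups had 2 arrays, all from the same parental line and time point, and nothing in the labels says whether the 2 arrays of a group came from separate cultures, so a p-value here reflects the spread among arrays, which may be technical.

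Splicing removes introns in a large assembly built from small nuclear RNAs and their proteins. The Sm proteins form a ring around most of these RNAs, and SF3A and SF3B, as parts of the U2 snRNP, hold the branch point of the intron. SR proteins mostly bind exons and recruit this machinery, whereas hnRNP proteins coat the nascent transcript and often oppose exon inclusion. Many SR and hnRNP genes also keep their own protein level in check through alternative exons that mark the transcript for decay.

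The values are log2 probe set signals. A gene or probe set is said to have risen or fallen where its limma p-value, adjusted by the Benjamini-Hochberg method over all genes tested, was under 0.05. The comparisons were the mean of both Ncl siRNAs minus control, each Ncl siRNA minus control, and siRNA #2 minus siRNA #1. The first 3 of these share the same 2 control arrays. Having 2 arrays a group limits the precision, and in RNA from bulk cells fewer cells of a type and less RNA per cell cannot be told apart.

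Ncl, the targeted gene, read 13.77 and 13.74 with siRNA #1, 13.77 and 13.72 with siRNA #2, and 14.21 and 14.21 in the control arrays. It fell with siRNA #1 (log2 -0.46, SE 0.04, limma adjusted p = 5.71e-09) and with siRNA #2 (log2 -0.46, SE 0.04, limma adjusted p = 3.61e-09), to about 72.9% and 72.5% of the control level. The control arrays stood apart from all 4 Ncl siRNA arrays in other ways. The median signal of 9 lung epithelial markers was 4.51 to 5.04 in the Ncl siRNA arrays and 8.47 to 8.61 in the control arrays, and 8 of the 9 were lower with the Ncl siRNAs. The median of 10 cardiac markers was 5.12 to 5.32 with the Ncl siRNAs and 6.13 to 6.39 in control, and 8 of the 10 fell. For 8 leukocyte markers the medians were 5.03 to 5.21 with the Ncl siRNAs and 6.08 to 6.09 in control, while 3 fell, 1 rose and 4 did not pass. For 8 fibroblast markers they were 5.06 to 5.12 with the Ncl siRNAs and 5.44 to 6.18 in control, while 5 fell and 3 did not pass. The added bacterial poly-A control RNAs averaged 8.39 to 8.86 in the Ncl siRNA arrays and 7.58 to 7.74 in the control arrays, and the 18S rRNA probe sets 12.96 to 13.20 and 12.02 to 12.18. All 12 embryonic stem cell markers had signals of 9.47 or more on every array. Of these 12 markers of pluripotent cells, 8 fell and 2 rose with the Ncl siRNAs, with a median change of -0.40. The largest falls were in Fgf4 (-1.26), Esrrb (-0.84), Klf4 (-0.61) and Nanog (-0.59). Utf1 (0.29) and Sall4 (0.15) rose, while Sox2 (-0.09) and Dppa4 (0.015) did not pass. These differences run along the same split of the arrays as every comparison with control below, and their part in the results was not tested.

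Of the 47 genes, 15 rose, 16 fell and 16 did not pass in the mean of both Ncl siRNAs minus control. Over all 18193 genes 20.3% rose and 21.7% fell (42% in either direction), against 31.9% and 34% of the splicing genes. The splicing genes are mostly bright, and among the 9097 genes at or above the median signal 30.7% rose and 32.8% fell. The share of splicing genes that moved was near that of these brighter genes, and no closer match of signal was made. Their changes were small. The median change was 0.00 on the log2 scale, against -0.05 over all genes, and the median absolute change was 0.19. Srsf12, with a control level near the floor of the signal, was the 1 gene of the 47 that passed with a measured change of at least 2-fold, a size that 4.64% of all genes exceeded upwards and 1.61% downwards. Mean levels over the 6 arrays lay between 10.08 and 14.18 on the log2 scale, except for Srsf12 (6.004) and Snrpn (6.75).

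The counts by class ran in different directions. SR genes mostly rose (7 of 10, 1 fell, median 0.19), and Sm and snRNP genes mostly fell (7 of 9, 1 rose, median -0.30). SF3 genes had 4 that fell, 1 that rose and 4 that did not pass (median -0.10). The hnRNP genes went both ways, with 6 upwards, 4 downwards and 9 that did not pass (median 0.02). These are counts and medians over few genes, and no test between classes was made. They are to be read against 20.3% higher and 21.7% lower over all genes. Among genes at or above the median signal the shares were 30.7% and 32.8%.

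**Figure D1:**
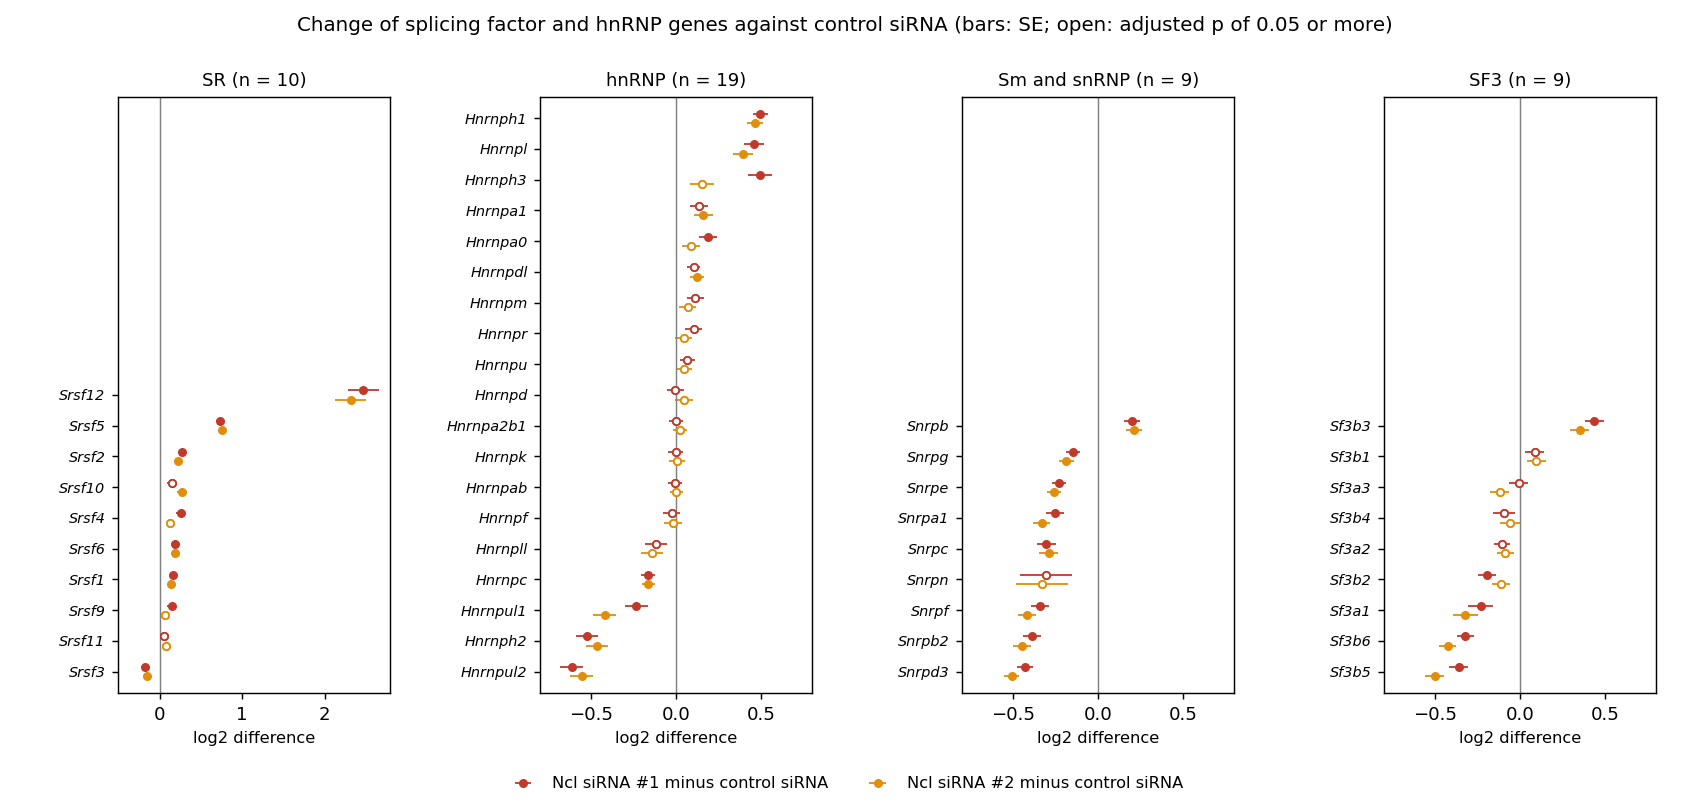
Log2 difference from control siRNA (x axis) for each of the 47 genes (rows), in panels for SR, hnRNP, Sm and snRNP, and SF3 genes, with siRNA #1 in red above siRNA #2 in orange, bars of 1 SE from the limma fit and open symbols where the adjusted p was 0.05 or more. The SR panel has a wider x axis because Srsf12 lies above 2, and the Sm and snRNP symbols lie left of 0 except those of Snrpb.

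With siRNA #1 alone 13 of the 47 genes rose and 16 fell, where 20.2% and 17.3% of all genes did (37.4% in either direction). With siRNA #2 alone 12 rose and 15 fell, where 17.7% and 21.7% of all genes did (39.5% in either direction). Of the 9097 genes at or above the median signal, 2855 rose and 2256 fell with siRNA #1. With siRNA #2, 2400 of these brighter genes rose and 3226 fell. Against control, 9 of the 47 genes rose with each siRNA (15.5% of all genes) and 15 fell with each (14.3% of all genes). The share among the brighter genes was not computed for passing with each siRNA. Of the 47 genes, 0 passed in opposite directions. Both siRNAs were set against the same 2 control arrays, so these counts are not independent of each other. All 4 Ncl siRNA arrays lay above both control arrays for 18 of the 47 genes and below both for 18. Over all genes this was so for 23.4% and 26.7%. Among the 9097 genes at or above the median signal it was so for 3038 and 3048, and no closer match of signal was made. The 31 of the 47 genes that passed were all among the 36 with such a split.

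**Figure D2:**
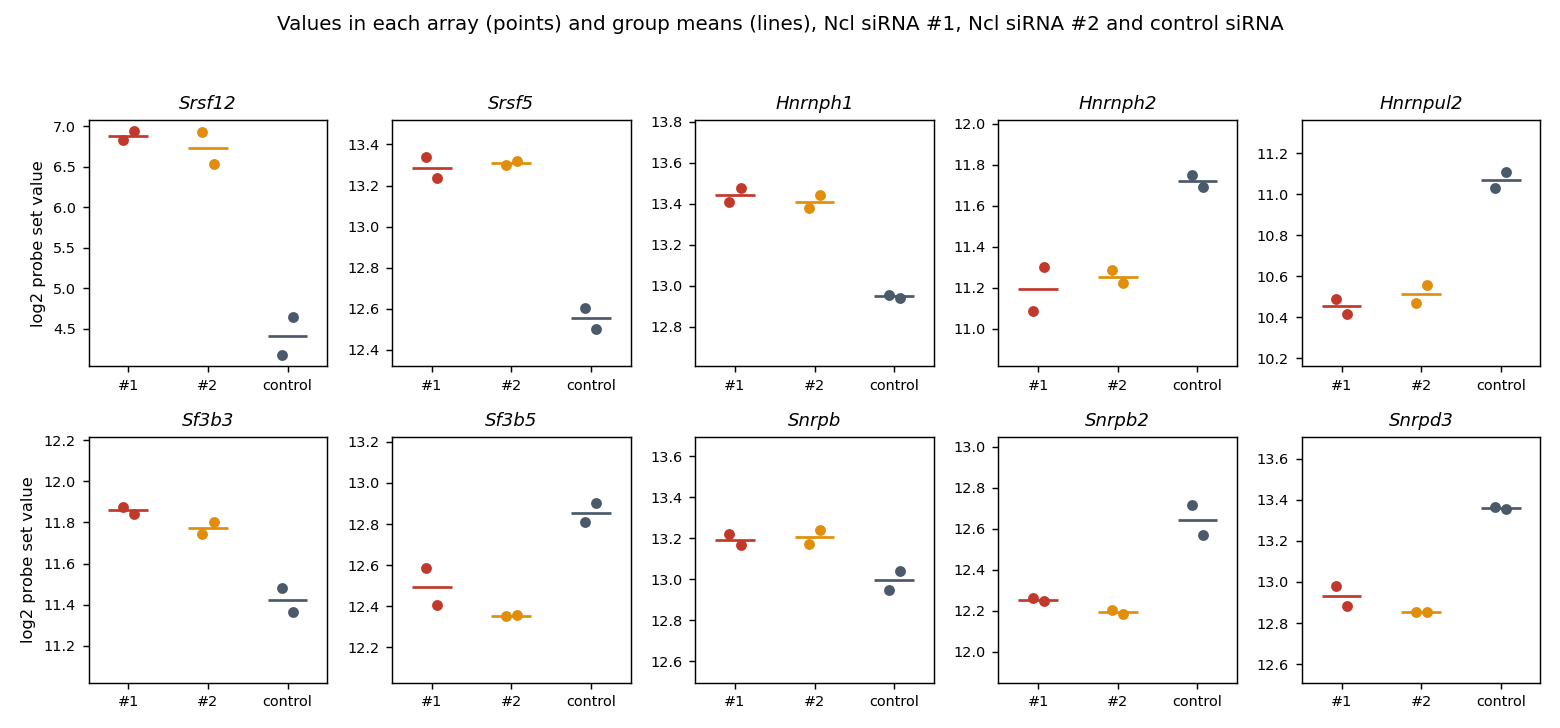
Log2 probe set value (y axis, each panel with its own range of levels) in each of the 6 arrays for 10 genes, with siRNA #1 in red, siRNA #2 in orange and control in grey, points for arrays and lines for group means. In each of the 10 panels the 4 Ncl siRNA points lie on one side of both control points, and the points of siRNA #1 and siRNA #2 are close to each other.

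SR proteins carry RNA recognition motifs and a domain rich in arginine and serine, and act mainly as activators of exons and in mRNA export. Srsf12, an SR-related protein that in human counteracts other SR proteins in splice site choice, read 6.82 and 6.94 with siRNA #1, 6.92 and 6.53 with siRNA #2, and 4.17 and 4.64 in the control arrays. All 4 Ncl siRNA readings lay far above both control readings, and 1 of the 2 control readings lay below the lower quartile of its array, near the floor of the signal. It rose (log2 2.39, SE 0.16, limma adjusted p = 6.62e-11), a measured 5.26-fold whose size the floor limits, by log2 2.47 with siRNA #1 and 2.32 with siRNA #2. Srsf5, an exon-binding SR protein whose own transcript has a decay-prone alternative exon in mouse, read 13.34 and 13.24 with siRNA #1, 13.30 and 13.32 with siRNA #2, and 12.60 and 12.50 in the control arrays. It was high in all 4 Ncl siRNA arrays without overlap and rose by 1.68-fold (log2 0.75, SE 0.04, limma adjusted p = 3.38e-12). Each of Srsf12 and Srsf5 is read by 1 probe set.

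The promoters of these genes are shown as the context of the SR genes with the largest changes. Here and below each sequence is the 250 bases before an annotated RefSeq start of the gene in GRCm38.p6, written 5′ to 3′ on the strand of the gene. Capitals mark CGGAAG, which is the core bound by ETS family factors, or else the CCAAT box. Both were searched on either strand, so the reverse complements are in capitals too. The Srsf12 window (chr4:33209022-33209271, plus strand) holds neither, and the Srsf5 window (chr12:80945249-80945498, plus strand) holds CGGAAG at 2 places. RefSeq places the first base of Srsf12 at 33208991, so its window lies within the gene and does not cover the bases before that position.
Srsf12: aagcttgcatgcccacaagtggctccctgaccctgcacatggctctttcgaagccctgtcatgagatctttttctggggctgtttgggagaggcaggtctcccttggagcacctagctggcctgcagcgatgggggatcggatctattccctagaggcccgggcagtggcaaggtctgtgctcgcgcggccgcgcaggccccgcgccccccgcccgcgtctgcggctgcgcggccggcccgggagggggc
Srsf5: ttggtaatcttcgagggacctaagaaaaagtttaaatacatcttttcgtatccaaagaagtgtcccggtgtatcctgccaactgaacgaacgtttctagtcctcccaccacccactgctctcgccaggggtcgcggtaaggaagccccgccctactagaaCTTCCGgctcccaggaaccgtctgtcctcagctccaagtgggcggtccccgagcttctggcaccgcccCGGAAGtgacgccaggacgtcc

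The other SR genes that rose moved by less than 0.3 on the log2 scale. Srsf2, an exon-binding SR protein of nuclear speckles, read 13.25 and 13.14 with siRNA #1, 13.14 and 13.17 with siRNA #2, and 12.96 and 12.90 in the control arrays and rose (log2 0.25, SE 0.04, limma adjusted p = 3.16e-05). Srsf10, a splicing repressor once dephosphorylated, read 11.48 and 11.68 with siRNA #1, 11.69 and 11.72 with siRNA #2, and 11.46 and 11.40 in the control arrays and rose (log2 0.22, SE 0.05, limma adjusted p = 0.00234). Srsf6, an activator of exons that is closely related to Srsf4 and Srsf5, read 13.19 and 13.11 with siRNA #1, 13.13 and 13.17 with siRNA #2, and 12.98 and 12.95 in the control arrays and rose (log2 0.19, SE 0.04, limma adjusted p = 0.000398). Srsf1, the founding SR protein, read 13.46 and 13.51 with siRNA #1, 13.47 and 13.45 with siRNA #2, and 13.29 and 13.35 in the control arrays and rose (log2 0.15, SE 0.04, limma adjusted p = 0.0018), although the call was lost without control replicate 1. For Srsf2, 2 further probe sets rose (0.25 and 0.31), and a dimmer one, 1427816_at, did not pass in the mean of both siRNAs (log2 -0.25, SE 0.14, limma adjusted p = 0.195). For Srsf1, none of the 6 other probe sets passed in either direction. Among them 1428099_a_at, close in signal to the probe set used, read 99.2% of the control level. The Ncl siRNA readings of these 4 genes all lay above both control readings. Srsf4 rose as well (log2 0.19, SE 0.05), and Srsf9 (log2 0.11, SE 0.05, limma adjusted p = 0.0701) and Srsf11 (log2 0.07, SE 0.04, limma adjusted p = 0.251) did not pass.

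Srsf3, a small SR protein that also serves as an adaptor for mRNA export, was the SR gene that fell. It read 13.25 and 13.40 with siRNA #1, 13.34 and 13.35 with siRNA #2, and 13.50 and 13.50 in the control arrays, with all 4 Ncl siRNA readings below both control readings (log2 -0.16, SE 0.04, limma adjusted p = 0.00262). Several of these genes were read differently by other probe sets. Srsf3 probe set 1416152_a_at rose (log2 0.24, SE 0.05), Srsf6 probe set 1416721_s_at fell (log2 -0.27, SE 0.05), and 2 further Srsf10 probe sets fell (log2 -0.17, SE 0.06 for 1418526_at and log2 -0.20, SE 0.07 for 1418527_a_at). When all probe sets of each gene were averaged, 4 SR genes rose in place of 7, and Srsf6 and Srsf10 had values of -0.09 and -0.03. The direction of Srsf3, Srsf6 and Srsf10 therefore depends on the probe set read.

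Among the hnRNP genes, Hnrnph1 and Hnrnph2 belong to 1 family of close relatives and moved in opposite directions. Hnrnph1, which binds runs of G, read 13.41 and 13.48 with siRNA #1, 13.38 and 13.44 with siRNA #2, and 12.96 and 12.94 in the control arrays. All 4 Ncl siRNA readings were above both control readings and the gene rose by 1.39-fold (log2 0.48, SE 0.04, limma adjusted p = 1.06e-09). Hnrnph2, its X-linked paralogue, read 11.09 and 11.30 with siRNA #1, 11.29 and 11.23 with siRNA #2, and 11.75 and 11.69 in the control arrays. It was low in all 4 Ncl siRNA arrays and fell to 71.0% of the control level (log2 -0.49, SE 0.06, limma adjusted p = 2.18e-07). A second, dimmer Hnrnph1 probe set, 1437267_x_at, did not pass (log2 -0.04, SE 0.18, limma adjusted p = 0.893), and the mean of both no longer passed (log2 0.22).

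Hnrnph3, a shorter relative of Hnrnph1, read 10.35 and 10.46 with siRNA #1, 10.07 and 10.06 with siRNA #2, and 9.95 and 9.88 in the control arrays. The siRNA #1 readings were highest and the siRNA #2 readings lay between them and control. It rose in the mean of both siRNAs (log2 0.32, SE 0.06, limma adjusted p = 0.00015) and with siRNA #1 (log2 0.49, SE 0.07, limma adjusted p = 6.82e-06), and with siRNA #2 the change did not pass (log2 0.15, SE 0.07, limma adjusted p = 0.0943). The fourth member of this family, Hnrnpf, did not pass (log2 -0.02, SE 0.04, limma adjusted p = 0.724).

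Hnrnpl, which binds CA repeats, read 11.90 and 11.78 with siRNA #1, 11.78 and 11.78 with siRNA #2, and 11.42 and 11.35 in the control arrays and rose without overlap (log2 0.42, SE 0.05, limma adjusted p = 2.96e-07). Hnrnpll, its paralogue known from exon skipping in activated lymphocytes, read 11.51 and 11.39 with siRNA #1, 11.35 and 11.51 with siRNA #2, and 11.51 and 11.63 in the control arrays and did not pass (log2 -0.13, SE 0.06, limma adjusted p = 0.0704), though it passed when each array was centred on its median (log2 -0.16). Hnrnpul2, a relative of the scaffold protein Hnrnpu, read 10.49 and 10.42 with siRNA #1, 10.47 and 10.56 with siRNA #2, and 11.03 and 11.11 in the control arrays. It was low in all 4 Ncl siRNA arrays and fell to 66.6% of the control level (log2 -0.59, SE 0.06, limma adjusted p = 1.44e-08). Hnrnpul1, another relative of Hnrnpu, read 10.72 and 10.76 with siRNA #1, 10.58 and 10.53 with siRNA #2, and 10.88 and 11.08 in the control arrays and fell without overlap (log2 -0.33, SE 0.06, limma adjusted p = 9.06e-05). Hnrnpu itself, which ties RNA to chromatin, read 13.30 and 13.23 with siRNA #1, 13.23 and 13.26 with siRNA #2, and 13.18 and 13.21 in the control arrays and did not pass (log2 0.06, SE 0.04, limma adjusted p = 0.266).

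On the brightest probe sets, changes were small in Hnrnpa1, Hnrnpa2b1, Hnrnpk and Hnrnpc. Hnrnpa1, a silencer of exons that also shuttles to the cytoplasm, read 11.86 and 11.96 with siRNA #1, 11.91 and 11.96 with siRNA #2, and 11.76 and 11.78 in the control arrays and rose slightly (log2 0.15, SE 0.05, limma adjusted p = 0.0139), a call that was lost without either control replicate, without siRNA #2 replicate 2, with array-median centring and without the variance trend. Another Hnrnpa1 probe set of similar signal, 1436549_a_at, rose further (log2 0.36, SE 0.05, limma adjusted p = 1.62e-05). Hnrnpa2b1, its close relative, read 13.58 and 13.59 with siRNA #1, 13.61 and 13.61 with siRNA #2, and 13.61 and 13.57 in the control arrays and did not pass (log2 0.01, SE 0.04, limma adjusted p = 0.857). Hnrnpk, which binds stretches of C, read 13.59 and 13.71 with siRNA #1, 13.69 and 13.63 with siRNA #2, and 13.67 and 13.64 in the control arrays and did not pass (log2 0.00, SE 0.04, limma adjusted p = 0.997), while Hnrnpk probe set 1448176_a_at rose (log2 0.18, SE 0.04, limma adjusted p = 0.0031). The readings of Hnrnpa2b1 and Hnrnpk overlapped between the groups. Hnrnpc, which binds tracts of U in introns, read 14.14 and 14.11 with siRNA #1, 14.12 and 14.13 with siRNA #2, and 14.27 and 14.31 in the control arrays and fell (log2 -0.17, SE 0.03, limma adjusted p = 0.000307), a call that was lost with quantile normalization (log2 -0.08) and without the variance trend. Hnrnpc probe set 1418693_at rose (log2 0.16, SE 0.06).

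Hnrnpa0 (log2 0.14, SE 0.05) and Hnrnpdl (log2 0.11, SE 0.04), a relative of the AU-rich element binding protein Hnrnpd, rose slightly. Hnrnpm, Hnrnpr, Hnrnpd and Hnrnpab did not pass, with changes of 0.09, 0.07, 0.02 and 0.00. The number of hnRNP genes that rose was sensitive to the settings: 3 in place of 6 with array-median centring, without the variance trend, or without control replicate 2.

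Most Sm and snRNP genes fell. The Sm proteins Snrpb, Snrpd3, Snrpe, Snrpf and Snrpg share 1 ring, and Snrpc belongs to the U1 snRNP and Snrpa1 and Snrpb2 to the U2 snRNP. Snrpd3 read 12.98 and 12.88 with siRNA #1, 12.85 and 12.85 with siRNA #2, and 13.37 and 13.36 in the control arrays. It was low in all 4 Ncl siRNA arrays and fell to 72.2% of the control level (log2 -0.47, SE 0.04, limma adjusted p = 2.17e-09). The 2 other probe sets of Snrpd3 did not pass and read 116.3% and 112.3% of the control level. Snrpb2 read 12.26 and 12.25 with siRNA #1, 12.20 and 12.18 with siRNA #2, and 12.72 and 12.57 in the control arrays and also fell without overlap (log2 -0.42, SE 0.05, limma adjusted p = 1.04e-07). Snrpf read 12.11 and 12.05 with siRNA #1, 11.94 and 12.06 with siRNA #2, and 12.44 and 12.41 in the control arrays and fell in the same way (log2 -0.38, SE 0.05, limma adjusted p = 4.54e-07). Smaller falls were measured for Snrpc (log2 -0.30, SE 0.05), Snrpa1 (log2 -0.29, SE 0.05), Snrpe (log2 -0.25, SE 0.04) and Snrpg (log2 -0.17, SE 0.04). All 7 also fell with each siRNA alone.

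Snrpb was the member of the class that rose. It read 13.22 and 13.17 with siRNA #1, 13.17 and 13.24 with siRNA #2, and 12.95 and 13.04 in the control arrays, with all 4 Ncl siRNA readings above both control readings (log2 0.21, SE 0.04, limma adjusted p = 0.000269), and its other probe set, 1419260_a_at, rose too (log2 0.18, SE 0.05). In human, SNRPB is known to regulate its own transcript through an alternative exon. Snrpn, an imprinted relative of Snrpb that is abundant in brain, read 6.59 and 6.72 with siRNA #1, 6.52 and 6.74 with siRNA #2, and 6.84 and 7.08 in the control arrays on the dim probe set with its symbol alone. The 4 Ncl siRNA readings were below both control readings and the change did not pass (log2 -0.32, SE 0.13, limma adjusted p = 0.0584), though it did with quantile normalization or array-median centring. Probe sets that list Snurf and Snrpn together, 2 proteins of 1 transcript, numbered 6, of which 3 rose. The largest change was on 1 that read 11.09 and 11.07 with siRNA #1, 11.05 and 11.05 with siRNA #2, and 10.71 and 10.72 in the control arrays (log2 0.35, SE 0.05, limma adjusted p = 4.41e-05).

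Further Sm and snRNP genes were read by probe sets that list other symbols too, and their values cannot be assigned to 1 gene. The probe set for Snrpd1 and Gm14277 read 11.92 and 11.88 with siRNA #1, 11.73 and 11.78 with siRNA #2, and 12.38 and 12.40 in the control arrays and fell (log2 -0.57, SE 0.04, limma adjusted p = 2.55e-08). The probe set for Snrpd2 and Gm5848 fell as well (log2 -0.39, SE 0.04, limma adjusted p = 1.10e-06), as did the one for Snrpa, Gm21559 and Gm5161 (log2 -0.24, SE 0.06, limma adjusted p = 0.00459). In each of these 3, all Ncl siRNA readings were below both control readings.

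The windows before Snrpd3 and Snrpb2 are shown for comparison with those of the SR genes. On the brightest probe sets these were the Sm and U2 genes with the largest falls. The Snrpd3 window (chr10:75517792-75518041, plus strand) holds CCAAT at 2 places, once on each strand, and the Snrpb2 window (chr2:143062819-143063068, plus strand) holds CGGAAG at 2 places.
Snrpd3: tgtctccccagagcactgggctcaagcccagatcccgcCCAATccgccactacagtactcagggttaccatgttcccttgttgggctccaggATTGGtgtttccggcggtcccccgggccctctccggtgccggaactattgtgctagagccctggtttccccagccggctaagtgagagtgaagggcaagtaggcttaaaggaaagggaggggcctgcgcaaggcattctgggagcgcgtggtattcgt
Snrpb2: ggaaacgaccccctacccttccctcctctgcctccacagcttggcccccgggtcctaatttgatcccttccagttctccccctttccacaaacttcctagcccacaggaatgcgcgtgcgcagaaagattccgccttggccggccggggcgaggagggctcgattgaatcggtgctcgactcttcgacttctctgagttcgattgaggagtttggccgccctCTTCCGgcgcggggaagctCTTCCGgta

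Of the SF3 genes, Sf3b3, a large scaffold subunit of SF3B, was the one that rose. It read 11.88 and 11.84 with siRNA #1, 11.74 and 11.80 with siRNA #2, and 11.48 and 11.36 in the control arrays, with all 4 Ncl siRNA readings above both control readings (log2 0.39, SE 0.05, limma adjusted p = 6.72e-07). Sf3b5, a small subunit, read 12.58 and 12.41 with siRNA #1, 12.35 and 12.36 with siRNA #2, and 12.81 and 12.90 in the control arrays. It was low in all 4 Ncl siRNA arrays and fell to 74.2% of the control level (log2 -0.43, SE 0.05, limma adjusted p = 1.54e-07). Sf3b6, a subunit known from human to contact the branch point adenosine, read 12.46 and 12.40 with siRNA #1, 12.37 and 12.28 with siRNA #2, and 12.74 and 12.77 in the control arrays and fell without overlap (log2 -0.37, SE 0.04, limma adjusted p = 2.57e-07), and 2 of its 3 other probe sets fell (-0.53 and -0.31), while the third, at the floor of the signal, did not pass (log2 -0.35, SE 0.14, limma adjusted p = 0.0661).

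Sf3a1, a subunit of SF3A, read 10.09 and 9.98 with siRNA #1, 9.88 and 10.003 with siRNA #2, and 10.24 and 10.29 in the control arrays and fell (log2 -0.28, SE 0.06, limma adjusted p = 0.00101), but its mean over all 4 probe sets was 0.09 and did not pass. Sf3b1, the subunit that clamps the branch point and is often mutated in human leukaemias, read 12.49 and 12.58 with siRNA #1, 12.47 and 12.62 with siRNA #2, and 12.50 and 12.40 in the control arrays. It did not pass (log2 0.09, SE 0.05, limma adjusted p = 0.144), though it did with quantile normalization (log2 0.14), and 2 of its other probe sets fell (log2 -0.13, SE 0.05 for 1418562_at and log2 -0.34, SE 0.07 for 1440818_s_at). Sf3b2 fell (log2 -0.15, SE 0.05), and Sf3a2, Sf3a3 and Sf3b4 did not pass, with changes of -0.10, -0.06 and -0.08.

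The windows before Sf3b3, which rose, and Sf3b6, which fell, are shown. These had the largest called change in each direction among the SF3 genes with exactly 1 annotated window. Sf3b5 fell further (log2 -0.43) but did not have exactly 1. Sf3b3 and Sf3b6 belong to 1 complex. Both windows hold CGGAAG, at 1 place in Sf3b3 (chr8:110846804-110847053, minus strand) and at 2 places in Sf3b6 (chr12:4817358-4817607, plus strand). The Sf3b3 window also holds CCAAT once. The Sf3b3 window lies within the neighbouring gene Cog4 as RefSeq places it.
Sf3b3: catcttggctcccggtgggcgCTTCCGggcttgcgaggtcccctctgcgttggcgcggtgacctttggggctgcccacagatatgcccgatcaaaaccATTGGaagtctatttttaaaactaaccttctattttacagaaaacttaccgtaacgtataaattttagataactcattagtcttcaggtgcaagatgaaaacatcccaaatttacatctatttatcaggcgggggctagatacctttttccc
Sf3b6: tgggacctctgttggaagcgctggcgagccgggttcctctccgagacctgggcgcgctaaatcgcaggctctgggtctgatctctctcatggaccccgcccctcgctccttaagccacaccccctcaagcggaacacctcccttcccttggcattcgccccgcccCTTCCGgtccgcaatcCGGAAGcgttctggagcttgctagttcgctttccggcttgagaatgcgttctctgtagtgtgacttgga

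Of the 47 genes, 42 had an entry in the RefSeq promoter table, and 6 motifs were searched in these windows on both strands. Besides the ETS core and the CCAAT box these were the GC box written GGGCGG, the E-box written CACGTG, the NRF1 core written GCATGCGC and the TATA box written TATAAA. A gene counts as holding a motif if any of its annotated windows does, so genes with more windows have more chances. The genes set beside the splicing genes here were not matched to them in signal or in number of windows. Whether a motif is more frequent than in genes of like signal was not tested. CGGAAG stood in the windows of 22 of the 42 genes (52.4%), against 22.3% of 14452 genes tested and 15.3% of all 27025 genes in the table. By class it stood in 7 of 7 SF3 genes, 5 of 8 Sm and snRNP genes, 4 of 10 SR genes and 6 of 17 hnRNP genes. It stood in 5 of 14 genes that rose and 8 of 14 that fell. GGGCGG stood in 13 of 14 genes that rose (92.9%) and 7 of 14 that fell (50%), against 69.0% of the 42 genes (9 of 10 SR genes among them) and 53.4% of genes tested. CCAAT stood in 50% of the 42 genes and 39.4% of genes tested, CACGTG in 4.76% and 8.73%, GCATGCGC in 4.76% and 3.96%, and TATAAA in 11.9% and 10.5%. Of the 14 genes that rose and the 14 that fell, CCAAT stood in 7 and 8 and CACGTG in 0 and 0. GCATGCGC stood in 1 and 0 of them, and TATAAA in 2 and 1. No test of these splits was made. A match is a description of the letters and shows no binding.

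Counted by probe set, more fell than rose, though a gene with several probe sets counts several times. By gene, 15 rose and 16 fell on the brightest probe set, and 11 rose and 15 fell with the mean of all probe sets. Of 139 probe sets, in a limma fit over all 45037 probe sets, 25 rose, 41 fell and 73 did not pass, where 15.2% and 16.2% of all probe sets rose and fell. The 92 probe sets other than the brightest of each gene had 10 that rose and 25 that fell. Changes of -0.5 or lower were measured by 10 probe sets, 9 of which were not the brightest of their gene. Of 35 genes with more than 1 probe set, 5 had some that rose and others that fell: Hnrnpab, Hnrnpc, Srsf10, Srsf3 and Srsf6.

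Hnrnpab, an hnRNP of the A and B type, showed the widest spread. Its probe set 1426114_at read 11.19 and 11.01 with siRNA #1, 11.30 and 11.28 with siRNA #2, and 12.15 and 12.15 in the control arrays, low in all 4 Ncl siRNA arrays, and fell to 51.6% of the control level (log2 -0.95, SE 0.05, limma adjusted p = 5.02e-10). On the same gene the brightest probe set read 0.00 as a change and 1448144_at rose (log2 0.19, SE 0.06). Hnrnpu probe set 1434391_at read 9.08 and 9.11 with siRNA #1, 9.15 and 9.28 with siRNA #2, and 9.96 and 9.79 in the control arrays and fell (log2 -0.72, SE 0.08, limma adjusted p = 1.13e-06), while the other 4 probe sets of Hnrnpu did not pass. Srsf11 probe set 1439095_at read 7.06 and 7.07 with siRNA #1, 6.74 and 6.66 with siRNA #2, and 7.77 and 7.41 in the control arrays and fell (log2 -0.70, SE 0.12, limma adjusted p = 0.000226).

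Of the probe sets other than the brightest, 3 rose and 5 fell of 23 for SR genes, and 6 rose and 9 fell of 39 for hnRNP genes. Over all probe sets on the arrays 15.2% rose and 16.2% fell. Probe sets of 1 gene are counted separately here, and 4 of the hnRNP falls are from Hnrnpab. Snrpg probe set 1448357_at read 12.87 and 12.73 with siRNA #1, 12.52 and 12.62 with siRNA #2, and 13.33 and 13.37 in the control arrays and fell (log2 -0.67, SE 0.05, limma adjusted p = 4.01e-09), further than the brightest probe set of the gene. Snrpb2 probe set 1426613_a_at (log2 -0.69, SE 0.05), Snrpa1 probe set 1417353_x_at (log2 -0.57, SE 0.05), Sf3b2 probe set 1456040_at (log2 -0.57, SE 0.07) and Sf3a3 probe set 1432488_a_at (log2 -0.55, SE 0.07) did the same. Of the 9 other Sm and snRNP probe sets 1 rose and 4 fell, and of the 21 other SF3 probe sets 0 rose and 7 fell. The 2 further probe sets of Snrpd3 did not pass and were positive (0.22 and 0.17), which brought the mean of all 3 to -0.03. Which transcript forms each probe set reads was not tested.

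**Figure D3:**
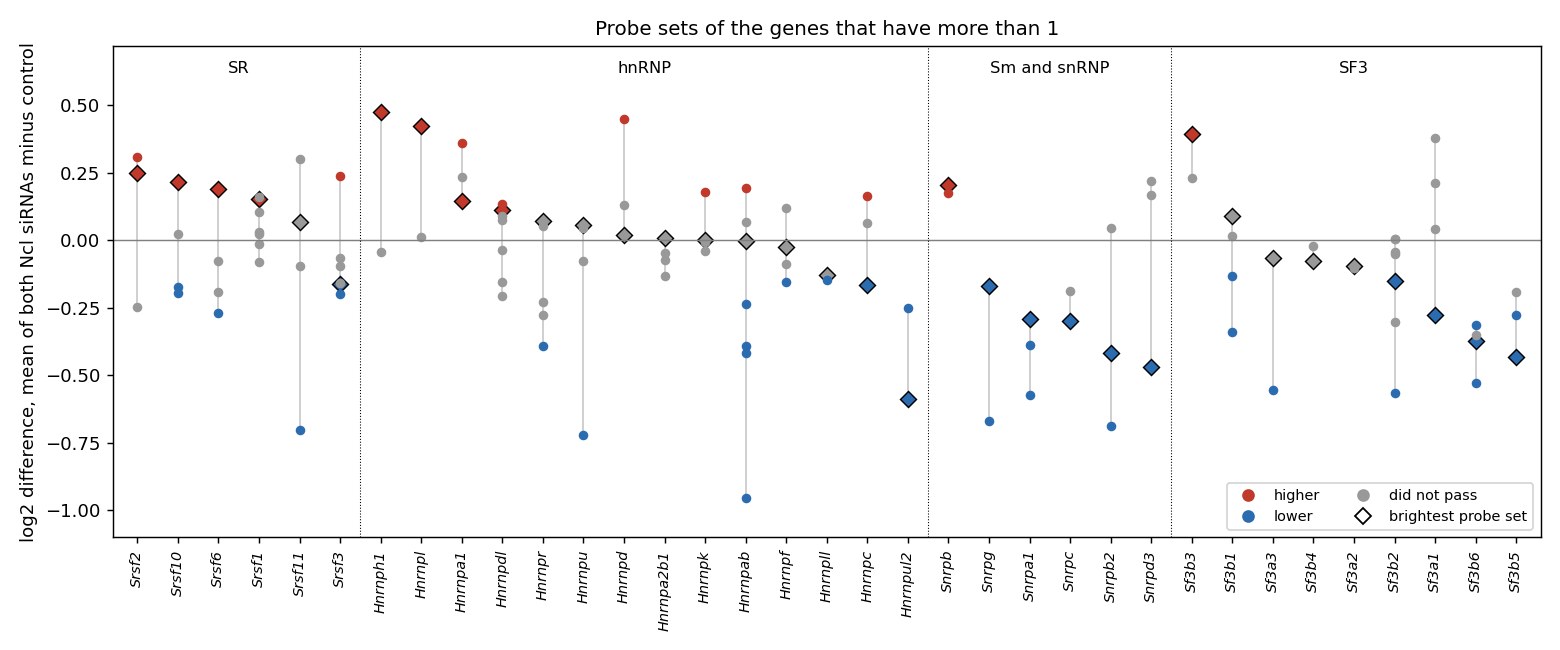
Log2 difference between the mean of both Ncl siRNAs and control (y axis) for every probe set of the 35 genes with more than 1 (x axis, by class), coloured by the limma call, with a diamond for the brightest probe set of each gene. Lines join the probe sets of a gene, and the lowest point is Hnrnpab at -0.95.

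Few differences between the Ncl siRNAs passed in these genes. In siRNA #2 minus siRNA #1, 0 of the 47 genes passed upwards and 1 downwards, where 2.3% and 6.18% of all genes did (8.48% in either direction). Of the 9097 genes at or above the median signal, 320 passed upwards and 1027 downwards. At an unadjusted p under 0.05 in limma, 0 of the 47 genes were higher and 4 lower. The differences ran from -0.34 to 0.12 on the log2 scale. The gene that passed was Hnrnph3, with siRNA #2 lower than siRNA #1 (log2 -0.34, SE 0.07, limma adjusted p = 0.00397), a call that was lost without either siRNA #2 replicate and without the variance trend, each time with about the same difference. Among all 139 probe sets 3 were lower with siRNA #2 (1.95% of all probe sets) and 0 higher (0.959%). Besides Hnrnph3 these were Srsf3 probe set 1416151_at, which read 10.76 and 10.73 with siRNA #1, 10.40 and 10.29 with siRNA #2, and 10.72 and 10.76 in the control arrays (log2 -0.40, SE 0.07, limma adjusted p = 0.00326 for siRNA #2 minus siRNA #1), and Snrpg probe set 1448357_at (log2 -0.23, SE 0.05, limma adjusted p = 0.0226). Srsf3 probe set 1416151_at lay at the control level with siRNA #1 and below it with siRNA #2.

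Beyond these genes, 186 of 210 listed genes for other spliceosome subunits and regulators were measured, and 44 rose and 69 fell, with a median of -0.07. In the assembly chain of the snRNPs, the LSM ring and the SMN complex that loads the Sm ring, 14 of 21 genes fell and 1 rose (median -0.25). Lsm3 and Lsm10, ring proteins of the U6 and U7 RNAs, fell (log2 -0.69, SE 0.05 and log2 -0.66, SE 0.09), and Prmt5, which methylates Sm proteins, rose (log2 0.26, SE 0.05). Of 25 proteins of the U1, the U4/U6.U5 and the minor snRNPs 12 fell and 5 rose (median -0.07). Among them Snrnp48, of the minor spliceosome, fell (log2 -1.13, SE 0.07), as did Luc7l2, associated with the U1 snRNP (log2 -0.64, SE 0.06), while Txnl4a (log2 0.63, SE 0.05) and Prpf8 (log2 0.44, SE 0.05) of the U5 snRNP rose.

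For U2AF and branch point selection, 5 of 9 genes rose and 2 fell (median 0.18), with Cherp (log2 0.37, SE 0.06) and Dhx15 (log2 0.28, SE 0.04) up and U2af1l4 (log2 -0.25, SE 0.07) and Phf5a, an SF3B subunit outside the naming rule (log2 -0.19, SE 0.05), down. Of 30 genes of the Prp19 complex and catalytic steps 8 rose and 10 fell (median -0.09), led by Cwc22 (log2 0.75, SE 0.06) and Dhx16 (log2 0.48, SE 0.04) upwards and Xab2 (log2 -0.69, SE 0.07) and Ppil1 (log2 -0.52, SE 0.06) downwards. Of 16 exon junction and export genes 2 rose and 9 fell (median -0.18). Casc3 (log2 0.19, SE 0.07) and Ddx39a (log2 0.16, SE 0.04) rose, and the export factors Thoc2 (log2 -0.43, SE 0.06) and Ddx39b (log2 -0.37, SE 0.04) fell.

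Of 22 SR-related proteins and SR kinases 4 rose and 8 fell (median -0.09). The kinase Clk3 (log2 0.34, SE 0.08) and Rsrc2 (log2 0.27, SE 0.05) rose, and the kinase Srpk2 (log2 -0.58, SE 0.07) and the speckle protein Srrm2 (log2 -0.44, SE 0.05) fell. The 64 other RNA-binding regulators had 19 that rose and 15 that fell (median -0.02), and the widest changes. Mbnl2, a muscleblind protein, read 10.37 and 10.67 with siRNA #1, 10.64 and 10.76 with siRNA #2, and 8.86 and 8.99 in the control arrays and rose (log2 1.69, SE 0.08), and Celf2 rose too (log2 1.41, SE 0.10). Celf4, a relative of Celf2, read 7.91 and 7.80 with siRNA #1, 7.47 and 7.45 with siRNA #2, and 8.85 and 9.02 in the control arrays and fell (log2 -1.28, SE 0.10), as did Rbm6 (log2 -0.79, SE 0.06). These counts stand beside 20.3% higher and 21.7% lower over all genes. Among genes at or above the median signal the shares were 30.7% and 32.8%.

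**Figure D4:**
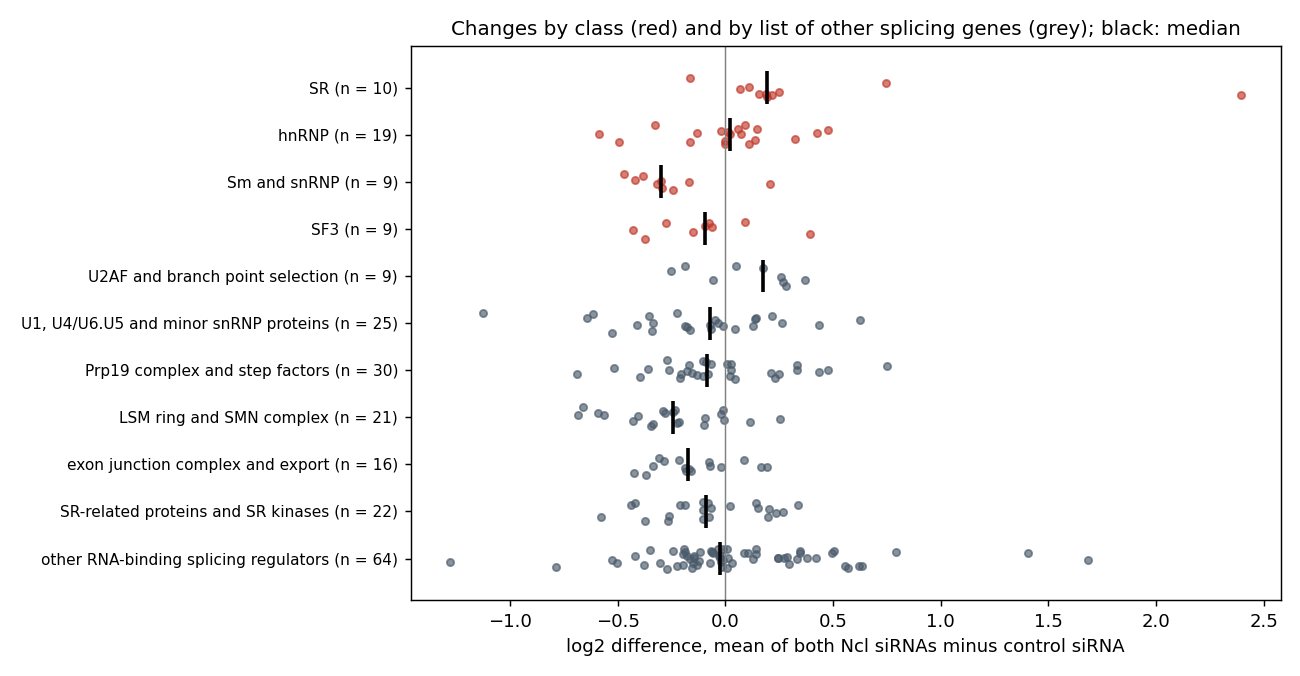
Log2 difference between the mean of both Ncl siRNAs and control (x axis) for each gene (points) of the 4 classes (red) and of 7 lists of other splicing genes (grey), with black bars at the medians and spread across each row for visibility. The SR median lies at 0.19, the Sm and snRNP median at -0.30 and the median of the LSM ring and SMN complex at -0.25.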

How the data were processed

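The deposited table holds 1 value for each of 45101 probe sets on 6 arrays. Its values are on a log2 scale, which the authors had already normalized between arrays to judge by array medians of 5.73 to 5.79. Per the labels, RNA was extracted with a column kit and labelled with biotin by in vitro transcription. The method of background correction, normalization or summarisation is not given in the sources used.

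The 64 control probe sets were left out. Genes were named by the platform annotation, in which, without the controls, 34945 probe sets have 1 symbol, 932 have several and 9160 have none. The highest-mean probe set per gene gave 18193 genes, tested with limma 3.58.1 in R 4.3.3 (3 groups, variance trend, 3 residual degrees of freedom, Benjamini-Hochberg over all genes, threshold 0.05). All 45037 other probe sets were fitted in the same way. The fit was tested on simulated data. All 47 members matched RefSeq by gene ID, and promoter windows are from RefSeq.

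The members, the pathway lists and the markers were chosen with earlier results of these data known. Array values are given for 13 genes chosen by role, for up to 3 called genes in each direction per class and in siRNA #2 minus siRNA #1, and for genes with oppositely called probe sets, and up to 2 genes in each direction per pathway list are named. Probe sets described singly were chosen after their values were seen. Alternatives were quantile normalization, array-median centring, the mean of all probe sets, no _x_at or _s_at probe sets, no genes below the median signal, no variance trend, robust estimation, array weights, a fit on just the arrays of each comparison, the replicate number as a block, and leaving out each array. Arrays with the same replicate number did not deviate together (correlations of -0.02, -0.01 and 0.01), so the numbers were not taken as pairs.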

Additional observations from a re-analysis of the deposited data

Results flagged for a closer look

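Hnrnph3 was lower with siRNA #2 than with siRNA #1 (log2 -0.34, SE 0.07, limma adjusted p = 0.00397). Both siRNA #2 readings lay below both siRNA #1 readings. In the fit over all probe sets, Srsf3 probe set 1416151_at (log2 -0.40, limma adjusted p = 0.00326) and Snrpg probe set 1448357_at (log2 -0.23, limma adjusted p = 0.0226) also differed in this way. No cause was tested.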

How the results depend on the processing

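The members that rose in the mean of both Ncl siRNAs numbered 7 to 18 over all alternatives, and those that fell 12 to 19. Without the variance trend, 7 rose in that mean, 6 rose and 8 fell with siRNA #1, 5 rose with siRNA #2 and 0 fell in siRNA #2 minus siRNA #1. With it left out, 39 other splicing genes fell, 3 SR genes rose and 3 hnRNP genes rose. With the mean of all probe sets, 6 members rose with siRNA #2, 2 fell in siRNA #2 minus siRNA #1, 28 other splicing genes rose and 4 SR genes rose. Without probe sets ending in _x_at or _s_at, 2 fell in siRNA #2 minus siRNA #1. With array-median centring 3 hnRNP genes rose. Leaving out each array gave 11 to 17 members that rose and 15 to 18 that fell in the mean, 10 to 13 and 13 to 16 with siRNA #1, 9 to 14 and 14 to 16 with siRNA #2, 0 to 3 and 0 to 3 in siRNA #2 minus siRNA #1, 40 to 52 and 55 to 72 other splicing genes, 5 to 8 SR genes and 3 to 7 hnRNP genes that rose, and 4 to 5 hnRNP, 7 to 8 Sm and snRNP and 3 to 5 SF3 genes that fell. With the replicate number as a block the counts were 15 that rose and 16 that fell, as without it, and no count moved by over 1.5 times. The pairing by number had no support in the arrays. Signs turned in some genes when other probe sets were read, and of the values that follow only that of Srsf2 with siRNA #1 (-0.448) passed in limma. With the mean of all probe sets the values (mean of both, siRNA #1, siRNA #2) were 0.02, 0.006 and 0.034 for Hnrnpc, 0.09, 0.161 and 0.019 for Sf3a1, and -0.087, -0.098 and -0.076 for Srsf6. Srsf10 was -0.033 in the mean and -0.062 with siRNA #2, and Snrpd3 was 0.016 with siRNA #2. With quantile normalization another Srsf1 probe set was brightest and read -0.035 in the mean and -0.128 with siRNA #1. Without _x_at and _s_at probe sets Srsf1 was -0.012 and -0.104, and Srsf2 was -0.246, -0.448 and -0.045. In these cases the alternative reads other probes of the gene. For the other shifts the cause was not tested. Dim probe sets such as those of Srsf12 and Snrpn limit the size of their changes.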
